A study of Mus musculus with 25 samples.

Results

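Expression of 8 genes whose products form or remove superoxide and hydrogen peroxide was followed in the left ventricle of 25 mice. The genes were Cat, Sod1, Sod2, Sod3, Nox4, Cybb, Cyba and Xdh, picked by symbol, and they are 8 of the 35969 mouse genes for which transcript abundances were summed. Of these, 7 had a mean of at least 1 on the scale used here and were among the 11984 genes tested, and Nox4 was below that level. The abundance unit was TPM (a transcript's share of its library, corrected for transcript length), which was summed over the transcripts of a gene and divided by a median-ratio factor per library, and is called scaled TPM.

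The study asked how an obesogenic diet, reduced glutathione peroxidase 4 and oral carnosine, a histidyl dipeptide, act on the mouse heart. All mice were male, had been backcrossed to C57BL6/J and entered the study at 8 to 10 weeks of age for 16 weeks of diet, after which left ventricular tissue was taken. The 5 groups held 5 mice each. WT CNTL were wild-type mice on control chow, GPx4+/- CNTL were littermates with 1 disrupted Gpx4 allele on the same chow, WT HFHS and GPx4+/- HFHS were the same genotypes on a high fat high sucrose diet, and WT HFHS + Carnosine were wild-type mice on that diet that drank 80 mM carnosine from week 7. The disrupted allele is present in every tissue, so it is no model of loss in heart muscle cells alone. Mice received dextrose or saline before death, and the labels do not say which mouse received which.

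Superoxide is made when an electron is passed to oxygen, and dismutases turn it into hydrogen peroxide. Sod1 works in the cytosol with copper and zinc, Sod2 in the mitochondrial matrix with manganese, and Sod3 is secreted and binds to the extracellular matrix. Catalase, encoded by Cat, breaks hydrogen peroxide down to water and oxygen, mostly in peroxisomes. Nox4 and Cybb (also called Nox2) are catalytic subunits of NADPH oxidases, Cyba (p22phox) is the membrane partner both need, and xanthine dehydrogenase, encoded by Xdh, oxidizes purines and can pass electrons to oxygen. In the heart, Sod2 and Sod1 are abundant with the mitochondria-rich muscle cell, Cybb is known best from phagocytes, and Sod3 and Nox4 are also made by vascular and connective tissue cells.

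The libraries held between 11652 and 12305 genes at 1 TPM or more, and mitochondrial transcripts took 31.3% to 48.7% of their TPM. TPM keeps no read depth, so the counting error behind a value is unknown. Gpx4 had a scaled TPM of 251 to 383 in the GPx4+/- libraries and 591 to 778 in the WT libraries, with no overlap. Cardiomyocyte markers (8 genes) summed to more than 43435 in every library. By the extraction protocol all libraries came from left ventricular tissue, where atrial genes should be low, though their titles read heart tissue. Libraries that stood apart in markers of other cells were WT CNTL mouse 3, GPx4+/- CNTL mouse 1 and GPx4+/- HFHS mouse 4 for 5 atrial genes (sums of 4568, 7350 and 2695, against a median of 142 in WT CNTL), GPx4+/- CNTL mouse 2 for the same genes (1482) and for 7 hepatocyte genes (1257, against 9.97), GPx4+/- HFHS mouse 1 for hepatocyte genes (105), and WT HFHS mouse 4 for 5 smooth muscle genes. These 6 mice were picked on sight of the sums, with no set limit, and WT HFHS + Carnosine mouse 2 (atrial sum 580) and GPx4+/- HFHS mouse 3 (hepatocyte sum 65.6) were kept. Each count of members called was also computed without the 6 mice.

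The levels of the members spanned more than 2 orders of magnitude. Over the 25 mice the mean scaled TPM was 418 ± 32.1 (SD, n = 25) for Sod2, 391 ± 29.7 for Sod1, 145 ± 16.3 for Cat, 54.4 ± 9.22 for Xdh, 33.7 ± 3.70 for Cyba, 15.2 ± 3.36 for Sod3, 1.91 ± 0.326 for Cybb and 0.866 ± 0.673 for Nox4. Sod2 and Sod1 were not separated by their spread, since Sod2 was the higher in 20 of 25 mice and the ranges overlapped. Every other neighbouring pair kept its order in 25 of 25 mice, apart from Cybb and Nox4, which kept it in 24. The exception was WT HFHS mouse 4, the mouse with the highest Nox4. Sod2 and Sod1 ranked 213 and 226 in mean level among the 11984 genes tested, Cat 546, and Cybb 10705.

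**Figure D1:**
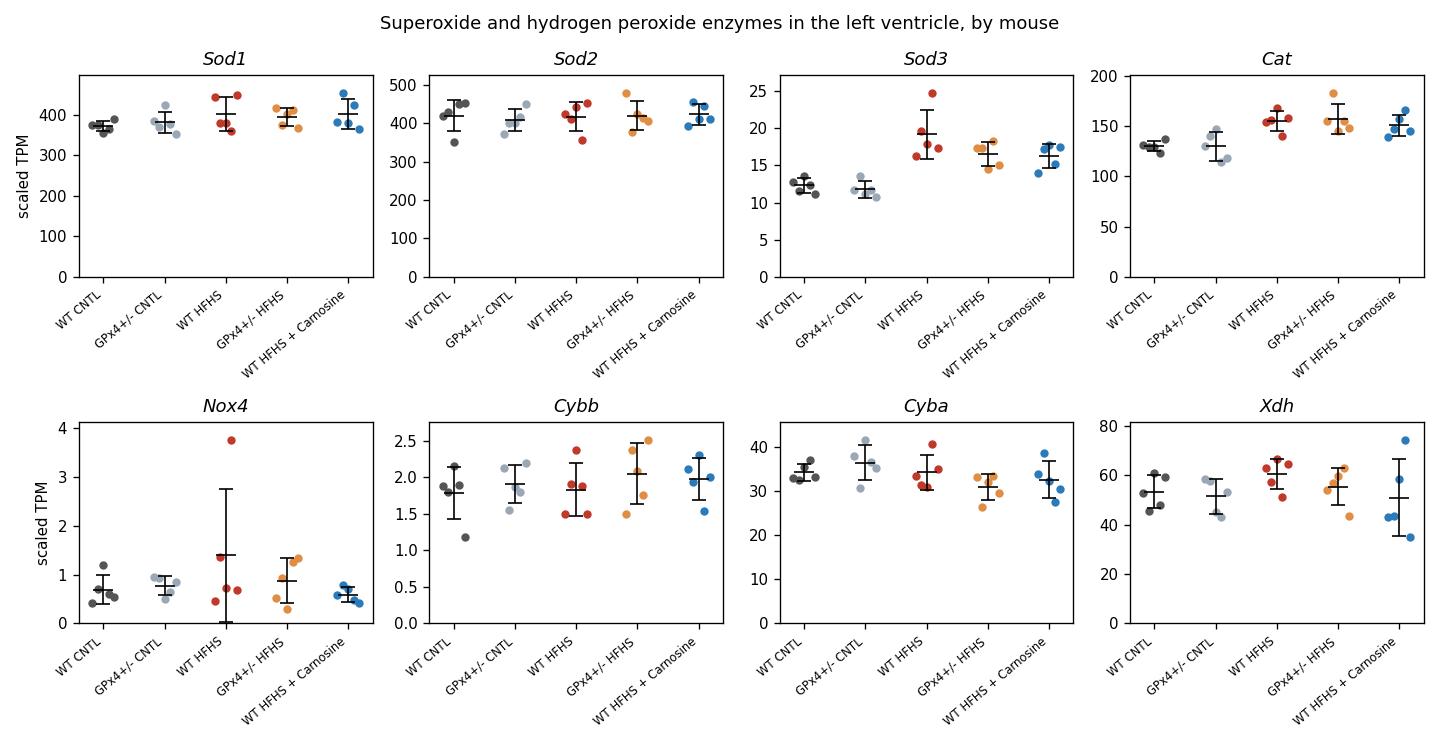
Scaled TPM (vertical axis, from 0, a separate scale for each gene) of the 8 genes in 5 groups of 5 mice. Points are mice, horizontal bars are group means and whiskers are SD. Sod3 and Cat sat higher on HFHS than on CNTL in both genotypes, while WT HFHS mouse 4 stood alone for Nox4 at 3.76.

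Sod3, the secreted dismutase, showed the largest difference with diet among the 7 members tested. The gene (ENSMUSG00000072941.5) lies on chromosome 5 from 52363791 to 52371418 of GRCm38, plus strand. In WT CNTL the mice had a scaled TPM of 12.8, 11.6, 13.6, 12.3 and 11.1, and in WT HFHS of 16.3, 19.7, 17.9, 24.8 and 17.4. In GPx4+/- CNTL the values were 11.7, 13.6, 11.1, 11.8 and 10.7, and in GPx4+/- HFHS 17.3, 17.4, 14.5, 18.4 and 15.1. All HFHS mice lay above all CNTL mice of their genotype, and the highest value of all was that of WT HFHS mouse 4.

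The mean of Sod3 was 56.1% higher on HFHS than on CNTL in WT mice (19.2 ± 3.34 against 12.3 ± 0.982, SD, n = 5) and 40.5% higher in GPx4+/- mice (16.5 ± 1.65 against 11.8 ± 1.1, SD, n = 5). The two-sided exact permutation p was 0.00794 in each genotype, the smallest that 5 mice against 5 allow. On the log2(scaled TPM + 0.5) scale, on which changes of weakly expressed genes come out too small, the fold change was 0.61 in WT (standard error 0.096, adjusted p = 0.0051 from limma), 0.47 in GPx4+/- (standard error 0.096, adjusted p = 0.0108) and 0.54 over both genotypes (standard error 0.068, adjusted p = 9.04e-05). The GPx4+/- call was lost with TPM as deposited (0.37, adjusted p = 0.104). The p of Sod3 was the 8th smallest of 11984 in WT and the 21st smallest over both genotypes. The difference between the genotypes in the diet effect was -0.14 (95% confidence interval -0.42 to 0.15, adjusted p = 0.834 from limma), and differences within that interval were not excluded.

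Markers of smooth muscle and connective tissue cells had higher values on HFHS beside Sod3. The 5 smooth muscle markers (Myh11, Acta2, Tagln, Cnn1, Actg2) summed to a scaled TPM of 66.2 to 135 in WT CNTL, 100.4 to 529 in WT HFHS, 69.7 to 184 in WT HFHS + Carnosine, 92.3 to 143 in GPx4+/- CNTL and 73.8 to 249.9 in GPx4+/- HFHS, with none of the 5 at 0 in any library. With diet over both genotypes 5 of 5 had a log2 fold change above 0 (median 0.61, with 0.91 in WT and 0.36 in GPx4+/-) and 0 passed the test. Of all genes tested, 8.33% were called in this comparison and 4.68% were called higher, with a median log2 fold change of -0.002. Of the 6 fibroblast markers 6 were above 0 (median 0.32) and 2 were called higher, and of the 8 cardiomyocyte markers 2 were above 0 (median -0.12) and 1 was called lower. Of the 8 endothelial markers 7 were above 0 (median 0.09) and 1 was called higher, and the 9 macrophage markers tested were all above 0 (median 0.17) with 0 called. The 6 fibroblast markers summed to 262 to 507 in WT CNTL and 330.5 to 589 in WT HFHS, and the highest sum was again that of WT HFHS mouse 4. Without this mouse the Sod3 difference in WT remained called (log2 fold change 0.52, standard error 0.081, adjusted p = 0.00764), and without the 6 mice named above it was 0.55 (adjusted p = 0.00746). Across the 25 mice Sod3 correlated with the fibroblast sum at r = 0.58 (0.64 with group means removed) and with the smooth muscle sum at r = 0.54 (0.43), the latter falling to 0.33 (0.12) without WT HFHS mouse 4. With the macrophage sum r was 0.55 (0.59), and with the cardiomyocyte sum it was -0.71 (-0.56). These points share libraries and scaling, and the part of cell makeup in the result was not tested further. In bulk tissue, fewer cells of a type and less RNA per cell cannot be told apart.

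**Figure D2:**
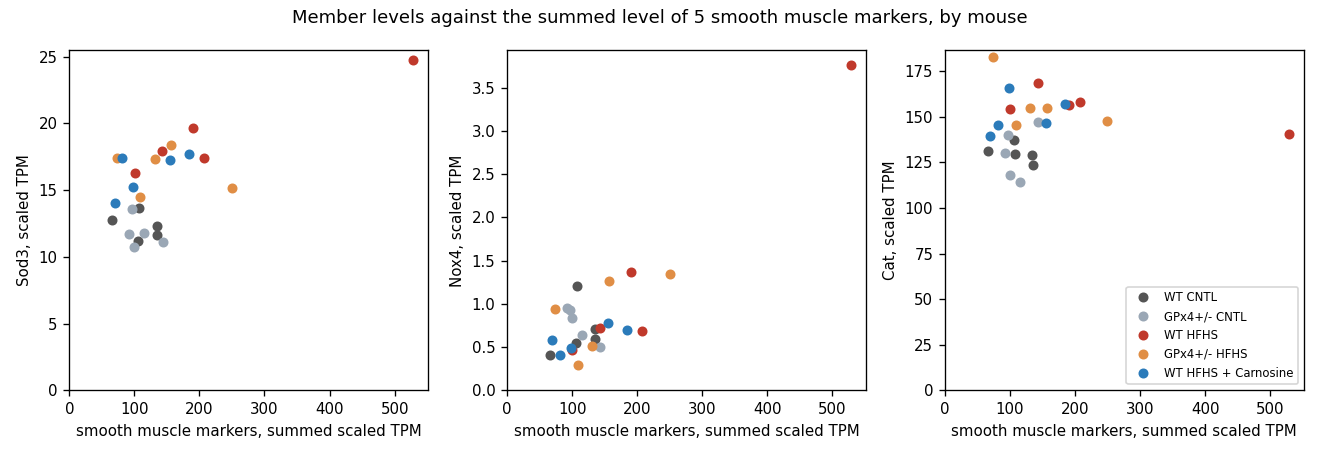
Scaled TPM of Sod3, Nox4 and Cat (vertical axes, from 0) against the summed scaled TPM of 5 smooth muscle markers (horizontal axis) in 25 mice, coloured by group. WT HFHS mouse 4, at a marker sum of 529, is the highest mouse for Sod3 (24.8) and Nox4 (3.76) but not for Cat, where its value of 140.5 is the lowest of its group.

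Sod1, the cytosolic dismutase (ENSMUSG00000022982.10, chromosome 16 from 90220754 to 90226329), was between 354 and 454 in all mice. Its group means were 373 ± 12.8 in WT CNTL, 403 ± 41.5 in WT HFHS, 402 ± 36.8 in WT HFHS + Carnosine, 382 ± 26.2 in GPx4+/- CNTL and 395 ± 22.4 in GPx4+/- HFHS (SD, n = 5). The groups overlapped in every comparison, and the difference with diet over both genotypes was 0.08 on the log2 scale (95% confidence interval -0.01 to 0.17, adjusted p = 0.295 from limma). On the linear scale this interval is a ratio of 0.990 to 1.13. A processed pseudogene, Gm8566, shares 465 bases with the Sod1 transcript at 97.8% identity and had a mean scaled TPM of 0.30, so reads of the pair cannot be assigned with certainty.

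Sod2, the mitochondrial dismutase (ENSMUSG00000006818.5, chromosome 17 from 13006846 to 13040063), lay between 353 and 479. The means ran from 408 ± 28.5 in GPx4+/- CNTL to 424 ± 26.4 in WT HFHS + Carnosine (SD, n = 5). With diet over both genotypes the log2 difference was 0.02 (95% confidence interval -0.10 to 0.13, adjusted p = 0.898 from limma). Of the 7 members tested it had the smallest difference with diet over both genotypes.

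The sum for Sod2 was made mostly of transcripts that GENCODE does not label as protein coding. Sod2-207, a processed transcript of 1138 bases, held 53.1% of it (mean 222), Sod2-204, a retained intron of 644 bases, held 34.6% (mean 145), and the protein-coding Sod2-201 of 5861 bases held 11.6% (mean 48.6). The shares hardly moved between groups, with Sod2-201 between 11.2% and 12.4% of the sum in the group means. Because TPM divides by transcript length, a short transcript reaches a high TPM with fewer reads than a long transcript. Over protein-coding transcripts alone Sod2 had 48.8 ± 4.25 (SD, n = 25) and ranked below Sod1 (390.5) and Cat (145), and in that order it was above Xdh (42.2) in 20 of 25 mice.

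Tested as a transcript, Sod2-201 was 42.8, 47.1, 50.0, 41.4 and 45.8 in GPx4+/- CNTL and 48.5, 57.6, 52.0, 48.0 and 52.2 in GPx4+/- HFHS. The log2 difference was 0.18 (standard error 0.072), and its unadjusted p of 0.0193 did not pass adjustment over 23328 transcripts (adjusted p = 0.268 from limma). In WT the difference was -0.03 (adjusted p = 0.911) and over both genotypes 0.08 (adjusted p = 0.486). The transcript Sod2-202 (mean 2.30) is labelled as subject to nonsense mediated decay and shares 3110 bases at 98.3% identity with Rps6ka2, so its value is uncertain.

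**Figure D3:**
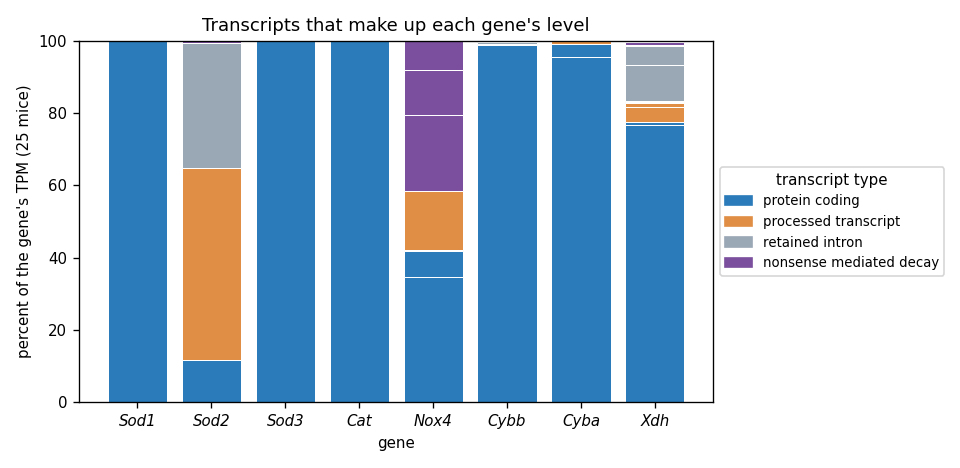
Percent of each gene's TPM (vertical axis, 0 to 100, summed over 25 mice) taken by its transcripts, stacked and coloured by the GENCODE transcript type. Cat, Sod1, Sod3, Cybb and Cyba are almost wholly protein coding, whereas protein-coding transcripts make up 11.7% of Sod2, 42.2% of Nox4 and 77.6% of Xdh.

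Cat, the peroxisomal catalase (ENSMUSG00000027187.10, chromosome 2 from 103453849 to 103485160, minus strand), was also higher on HFHS, by a smaller fold than Sod3. The WT CNTL mice had 131, 129, 129, 124 and 137, a narrow range, and the WT HFHS mice had 154, 157, 169, 140.5 and 158. In GPx4+/- CNTL the values were 130.3, 140.3, 147, 114 and 118, and in GPx4+/- HFHS 155, 183, 146, 155 and 148. WT groups did not overlap, while in GPx4+/- the lowest HFHS mouse (146) was below the highest CNTL mouse (147).

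The Cat mean was 19.6% higher on HFHS in WT mice (156 ± 10.1 against 130.1 ± 4.84, SD, n = 5, two-sided exact permutation p = 0.00794) and 21.0% higher in GPx4+/- mice (157 ± 14.9 against 130.0 ± 14.2, SD, n = 5, exact p = 0.0159). Over both genotypes the log2 fold change was 0.27 (95% confidence interval 0.16 to 0.37, adjusted p = 0.00281 from limma), and the call was kept with each mouse left out and under every other setting tried. Within a genotype the call was less firm. The WT difference of 0.26 did not pass the adjusted threshold (adjusted p = 0.0822 from limma). The GPx4+/- difference of 0.28 passed (adjusted p = 0.0401) but was lost when any of 8 mice was left out, with an adjusted p of 0.0501 to 0.0961 (WT CNTL mouse 1, GPx4+/- CNTL mice 1, 4 and 5, and GPx4+/- HFHS mice 1, 2, 4 and 5). The GPx4+/- call was also lost under 6 other alternatives, TPM as deposited among them (differences of 0.17 to 0.33, adjusted p = 0.0747 to 0.176 from limma). The diet effects of the genotypes differed by 0.02 (95% confidence interval -0.19 to 0.23). GPx4+/- CNTL mouse 2, the library with the highest hepatocyte sum, had the second highest Cat value of its group at 140.3. Liver is a tissue rich in catalase. Over the 25 mice Cat and the hepatocyte sum correlated at r = -0.14 (-0.02 with group means removed), which says little about a single library. With the cardiomyocyte sum the value was -0.58 (-0.23). The part of either in the result was not tested.

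The promoter of Cat is shown because Cat rose with diet, beside those of Sod1 and Sod2, which did not pass the test. In the RefSeq promoter table (build GRCm38.p6) 6 of the 8 members matched, all but Sod3 and Xdh. Each sequence is the 250 bases upstream of the RefSeq start, 5′ to 3′ on the strand of the gene, at chr2:103485154-103485403 (minus strand) for Cat, chr16:90220512-90220761 (plus strand) for Sod1 and chr17:13007589-13007838 (plus strand) for Sod2. The last 7, 8 and 22 bases lie within Cat-201, Sod1-201 and Sod2-201 of GENCODE, and the whole Sod2 window lies between the start and end of another transcript, Sod2-205, which starts farther upstream. Capitals mark matches on either strand to GGGCGG (GC box), CCAAT (the box of that name), TATAAA (bound by the TATA-binding protein), TGACNNNGC (the core of the antioxidant response element), AGGTCA (bound by many nuclear receptors) and TGANTCA (bound by AP-1).
Cat: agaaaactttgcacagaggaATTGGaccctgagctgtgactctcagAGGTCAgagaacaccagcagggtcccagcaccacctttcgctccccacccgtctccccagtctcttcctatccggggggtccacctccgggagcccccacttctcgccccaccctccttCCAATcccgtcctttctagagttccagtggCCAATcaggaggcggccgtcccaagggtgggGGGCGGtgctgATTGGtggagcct
Sod1: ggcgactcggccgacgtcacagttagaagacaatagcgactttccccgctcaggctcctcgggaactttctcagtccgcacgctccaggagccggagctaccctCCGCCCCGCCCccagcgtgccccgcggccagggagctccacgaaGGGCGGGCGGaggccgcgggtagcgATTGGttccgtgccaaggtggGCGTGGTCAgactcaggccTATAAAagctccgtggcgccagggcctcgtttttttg
Sod2: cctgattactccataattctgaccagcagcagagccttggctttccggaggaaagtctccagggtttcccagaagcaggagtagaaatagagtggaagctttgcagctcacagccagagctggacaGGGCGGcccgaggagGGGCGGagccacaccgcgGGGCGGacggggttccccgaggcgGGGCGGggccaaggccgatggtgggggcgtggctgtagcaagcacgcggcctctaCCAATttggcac

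The Cat window held 4 matches to CCAAT, in both orientations, 1 to GGGCGG and 1 to AGGTCA, which begins 204 bases upstream of the start. It held neither TATAAA nor TGACNNNGC. Sod1 had 4 matches to GGGCGG, some of which overlap, 1 to CCAAT, 1 to TATAAA and 1 to TGACNNNGC, and Sod2 had 4 to GGGCGG and 1 to CCAAT. Of 32851 promoter windows of the same length, 32.7% held GGGCGG, 33.8% CCAAT, 12.4% TATAAA, 10.2% TGACNNNGC, 14.0% AGGTCA and 6.75% TGANTCA. GC content was 62% for Cat, 66.4% for Sod1 and 63.6% for Sod2, against a median of 52.4%. These matches describe letters and no binding was measured.

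Of the NADPH oxidase members, Nox4 was below the minimum for the test, and Cybb and Cyba were called in no comparison with all mice in it. Nox4 (ENSMUSG00000030562.17, chromosome 7 from 87246096 to 87398710) had a scaled TPM of 0.413, 0.715, 1.20, 0.594 and 0.546 in the WT CNTL mice and of 0.464, 1.37, 0.719, 3.76 and 0.691 in WT HFHS. It was 0.50 to 0.948 in GPx4+/- CNTL, 0.293 to 1.35 in GPx4+/- HFHS and 0.412 to 0.778 in WT HFHS + Carnosine. The WT HFHS mean of 1.40 ± 1.36 (SD, n = 5) rested on mouse 4 and was 0.811 ± 0.390 (SD, n = 4) without it, beside 0.694 ± 0.304 (SD, n = 5) in WT CNTL. The exact permutation p for diet was 0.246 in WT and 0.635 in GPx4+/-, and for carnosine 0.190.

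At this level the transcripts of Nox4 are poorly resolved. Protein-coding transcripts held 42.2% of its TPM, transcripts labelled for nonsense mediated decay 41.6% and a processed transcript 16.2%. Nox4 followed the fibroblast sum (r = 0.77 over 25 mice, 0.76 with group means removed), the macrophage sum (0.69 and 0.75) and the smooth muscle sum (0.70 and 0.65). Without WT HFHS mouse 4 the smooth muscle value was 0.43 and the fibroblast value 0.69.

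Cybb, the phagocyte subunit (ENSMUSG00000015340.10, chromosome X from 9435252 to 9487771), was low in every group, between 1.19 and 2.51 in all. Group means were 1.78 ± 0.359 in WT CNTL, 1.83 ± 0.361 in WT HFHS, 1.98 ± 0.285 in WT HFHS + Carnosine, 1.91 ± 0.258 in GPx4+/- CNTL and 2.05 ± 0.418 in GPx4+/- HFHS (SD, n = 5). The difference with diet over both genotypes was 0.05 on the log2 scale (95% confidence interval -0.15 to 0.25, adjusted p = 0.801 from limma). Of the marker sums, that of macrophages followed Cybb most closely, at r = 0.65 over 25 mice (0.65 with group means removed).

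Cyba, the shared membrane subunit (ENSMUSG00000006519.11, chromosome 8 from 122424776 to 122432930), was 17.6 times as abundant as Cybb per length. The GPx4+/- CNTL mice ranged from 30.8 to 41.6 with a median of 36.6, and the GPx4+/- HFHS mice from 26.4 to 33.4 with a median of 32.1, so the groups overlapped. The mean was 36.4 ± 3.96 against 31.0 ± 2.94 (SD, n = 5, exact permutation p = 0.0397). The log2 difference of -0.23 (95% confidence interval -0.40 to -0.05) did not pass adjustment over all genes (adjusted p = 0.141 from limma), and without the 6 mice that stood apart it was -0.36 (adjusted p = 0.0518). Over both genotypes it was -0.12 (adjusted p = 0.229). In WT mice the means were 34.2 ± 1.94 and 34.2 ± 3.93, a log2 difference of -0.01 (95% confidence interval -0.18 to 0.17). The test of the difference between genotypes gave -0.22 (adjusted p = 0.695 from limma).

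Xdh (ENSMUSG00000024066.9, chromosome 17 from 73883895 to 73950196) varied most between mice on carnosine. Its values were 45.7 to 61.0 in WT CNTL, 43.1 to 58.6 in GPx4+/- CNTL, 51.5 to 66.7 in WT HFHS and 43.5 to 63.1 in GPx4+/- HFHS. In WT HFHS + Carnosine they reached from 35.2 to 74.4 with a median of 43.6, and 3 of the 5 mice were below all WT HFHS mice while 1 was above them all. The means were 51.0 ± 15.6 with carnosine and 60.6 ± 6.19 without (SD, n = 5, exact permutation p = 0.246), a log2 difference of -0.29 (95% confidence interval -0.67 to 0.08, adjusted p = 0.947 from limma). The value rested on single carnosine mice, at -0.44 without mouse 4 and -0.17 without mouse 5.

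The protein-coding Xdh-201 held 76.7% of the Xdh sum, the retained intron Xdh-206 10.2%, Xdh-213 5.03% and Xdh-207 4.06%. Xdh-201 was 40.9, 37.4, 43.1, 36.7 and 45.0 in WT CNTL and 48.3, 43.5, 50.2, 41.0 and 53.2 in WT HFHS. Over both genotypes its diet difference was 0.21 (standard error 0.077), which failed adjustment over 23328 transcripts (adjusted p = 0.153 from limma). The sum over all Xdh transcripts gave 0.14 (standard error 0.078, adjusted p = 0.266).

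Counted over the members, diet called 1 of 7 in WT (Sod3), where 1.18% of the genes tested were called, and 2 of 7 in GPx4+/- (Cat and Sod3), where 3.32% were. Over both genotypes it called the same 2 of 7, against 8.33% of all genes, and both were higher, against 4.68% called higher (2.16% in GPx4+/- alone). Without the 6 mice that stood apart the counts were 1, 1 and 3, the third being Cyba at a log2 difference of -0.21 (adjusted p = 0.0496), in fits that called 125, 180 and 590 genes in all. Groups of 5 did not overlap for 2 of 7 members with diet in WT (Cat and Sod3), where 4.55% of all genes did not, and for 1 of 7 in GPx4+/- (Sod3), where 4.5% did not. The median log2 difference with diet over both genotypes was near 0 over all genes.

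**Figure D4:**
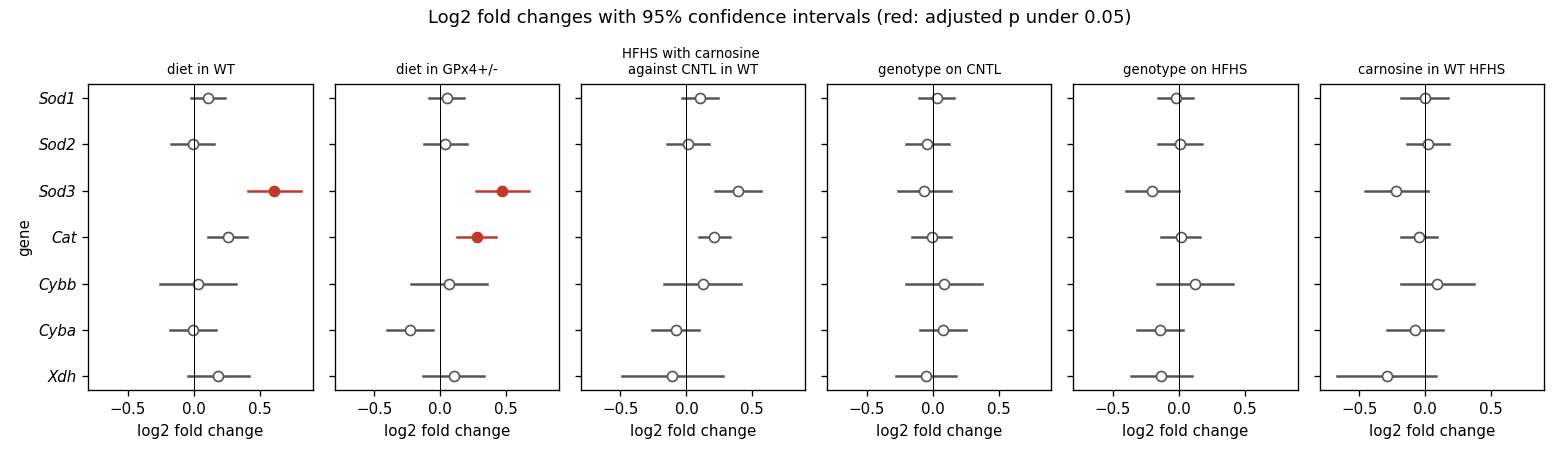
Log2 fold changes (horizontal axis, on the log2(scaled TPM + 0.5) scale) of the 7 members tested in 6 comparisons. Circles are estimates from limma, lines are 95% confidence intervals, and red marks an adjusted p under 0.05, which Sod3 reached in WT and GPx4+/- and Cat in GPx4+/-.

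Genotype called 0 of 7 members on CNTL and 0 on HFHS, where 0.0501% of genes were called in each, and 0 over both diets, where 0.0584% were. At an unadjusted p under 0.05 in limma the count of members was also 0 in each of these, where 752, 551 and 464 of 11984 genes had such a p, so few members would be counted in any case. Sod3 on HFHS was 16.5 in GPx4+/- against 19.2 in WT, a difference of -0.20 on the log2 scale (95% confidence interval -0.40 to 0.0006, adjusted p = 0.978 from limma) that was -0.11 without WT HFHS mouse 4. For Cat the interval of the genotype difference over both diets was -0.10 to 0.11, and for Sod2 it was -0.13 to 0.10. The test of diet by genotype called 0 of 11984 genes, and 857 had an unadjusted p under 0.05, none of them a member.

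Carnosine in WT HFHS mice likewise called 0 of 11984 genes in limma, and 504, with no member among them, had an unadjusted p under 0.05. Sod3 was 14.0, 17.2, 17.7, 15.2 and 17.4 in the carnosine mice, and 2 of the 5 lay below all WT HFHS mice. The mean was 16.3 ± 1.62 against 19.2 ± 3.34 (SD, n = 5, exact permutation p = 0.103), a log2 difference of -0.22 (95% confidence interval -0.46 to 0.02, adjusted p = 0.947), which was -0.13 without WT HFHS mouse 4. The 5 smooth muscle markers had a median log2 difference of -0.89 in the same comparison, 0 of 5 above 0 and 0 called. Their sum was 118 ± 49.7 with carnosine and 234 ± 170.0 without (SD, n = 5), and the latter was 160.1 ± 48.1 (SD, n = 4) without WT HFHS mouse 4. Of the 6 fibroblast markers 0 were above 0 (median -0.20), against 5 of 9 macrophage markers (0.002) and 7 of 8 cardiomyocyte markers (0.04). Of these 0 were called. Cat was 139, 147, 157, 166 and 145 with carnosine, a mean of 151 ± 10.5, and differed by -0.04 (95% confidence interval -0.18 to 0.09) from WT HFHS.

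Set against WT CNTL, which is also the reference of the WT diet comparison, the carnosine mice had higher Sod3 and Cat without overlap. Sod3 was 32.7% higher and Cat 16.0% higher (two-sided exact permutation p = 0.00794 for each). Of all genes, 3.27% did not overlap in this comparison. Neither member passed limma's test there (log2 difference 0.39 and adjusted p = 0.0701 for Sod3, 0.21 and 0.131 for Cat), in which 0.234% of genes were called. For Sod3 the call was made when all 25 mice shared 1 fit (adjusted p = 0.0443) and with array weights (adjusted p = 0.0407). In all, 48 exact permutation tests of single members were run, and their p-values are given unadjusted.

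Some correlations between the members changed once group means were removed and others hardly did. Cat and Sod3, which both rose with diet, correlated at r = 0.66 over the 25 mice and at 0.01 with group means removed (0.78 and 0.26 without WT HFHS mouse 4). Sod3 and Nox4 correlated at 0.49, and at 0.69 with group means removed, values that fell to 0.21 and 0.47 without that mouse, the highest for both genes. Sod2 and Nox4 (-0.56 and -0.60, or -0.41 and -0.43 without that mouse) and Sod1 and Cybb (-0.49 and -0.63) ran in opposite directions. All are descriptions over 25 libraries that share their scaling.

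The genes most like each member over the 25 mice were taken as the 2 with the highest r among tested genes that are not members. This r includes the diet difference of the member. A diet call of a gene picked for likeness to Cat or Sod3 is therefore no independent result. For Cat they were Calr3 (r = 0.85), a calreticulin, and Aox1 (0.85), an aldehyde oxidase that forms hydrogen peroxide, and both were called with diet over both genotypes (log2 fold change 0.39 and 0.36, adjusted p = 0.00374 and 0.0206 from limma). For Sod3 they were Fhl1 (0.88), a LIM protein of striated muscle, and Gas2l1 (0.86), a cytoskeletal linker, also called over both genotypes (0.44 and 0.30, adjusted p = 0.00206 and 0.00973), the call of Gas2l1 being lost with TPM as deposited (adjusted p = 0.122). Sod1 was most like Hrc (0.90), a calcium-binding protein of the sarcoplasmic reticulum, and Idh3g (0.88), of the citric acid cycle. Sod2 was most like Mrpl51 (0.92), a mitochondrial ribosomal protein, and Coq9 (0.92), of coenzyme Q synthesis.

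Cybb was most like Mpeg1 (0.78) and Ctss (0.76), both known from macrophages. Cyba was most like Nhsl1 (0.78) and Nenf (0.77), and Xdh like Herpud1 (0.89), of endoplasmic reticulum protein turnover, and Sesn1 (0.87), a sestrin. Nox4 was most like Ptgis (0.92), the prostacyclin synthase, and Boc (0.87), which without the 2 mice farthest from the median fell to 0.81 and 0.71. With group means removed the values were 0.64 and 0.79 for the genes like Cat and 0.65 and 0.66 for those like Sod3.

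Genes around the members were grouped into 7 lists of related function. With diet over both genotypes 8.33% of all genes tested were called, 4.68% were called higher, and 2934 of 11984 had an unadjusted p under 0.05. Of 18 genes for NADPH oxidase subunits and regulators, 9 were tested and 0 were called with diet over both genotypes or in any other comparison (median log2 difference with diet over both genotypes 0.03). At an unadjusted p under 0.05 the diet count was also 0. The small GTPase Rac1 was steady at 123 ± 4.59 in WT CNTL and 124 ± 6.32 in WT HFHS, and the phagocyte subunit Ncf1 had a mean scaled TPM of 1.83 over all mice. Of 14 genes that supply copper, zinc or manganese, 11 were tested and 0 were called, with 3 at an unadjusted p under 0.05. Of 12 other peroxide-forming oxidases, 11 were tested and 0 were called, with 1 at an unadjusted p under 0.05.

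In lists of the peroxisome, where catalase works, 5 genes were called with diet over both genotypes. Of 16 peroxins, all tested, 2 rose (4.68% of all genes did), namely Pex11a, which divides peroxisomes (log2 fold change 0.44, adjusted p = 0.00124 from limma), and Pex19, an import receptor of membrane proteins (0.20, adjusted p = 0.00653), a call lost with TPM as deposited (adjusted p = 0.103). Pex11a was 14.9 ± 1.33 in WT CNTL, 20.5 ± 3.26 in WT HFHS, 14.5 ± 2.55 in GPx4+/- CNTL and 19.8 ± 1.43 in GPx4+/- HFHS (SD, n = 5). Of 20 genes for peroxisomal oxidases and beta-oxidation, 14 were tested, 2 rose and 1 fell. Crat, carnitine acetyltransferase, rose by 0.23 (adjusted p = 0.0132), a call lost with TPM as deposited and without the 6 mice that stood apart (adjusted p = 0.0757 to 0.164). Scp2, a peroxisomal thiolase and lipid carrier, rose by 0.14 (adjusted p = 0.0385), a call lost under 18 of the alternatives. Ehhadh, the bifunctional enzyme, fell by 0.61 (adjusted p = 0.0114), from 11.3 ± 2.52 to 6.60 ± 1.95 in WT, and lost the call without the 6 mice that stood apart (adjusted p = 0.0824). The list median was 0.07 for peroxisomal oxidases and near 0 for peroxins and over all genes.

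In the purine breakdown and molybdenum cofactor list, 17 of 20 genes were tested and 2 rose with diet over both genotypes, where 4.68% of all genes did. They were Mocs2, of molybdenum cofactor synthesis (0.23, adjusted p = 0.00147 from limma), and Aox1, which uses that cofactor as Xdh does (0.36, adjusted p = 0.0206). The call of Mocs2 was lost with TPM as deposited (adjusted p = 0.0511) and that of Aox1 with no filter on low values (adjusted p = 0.0536). Hprt, of purine salvage, was the only gene of this list called with genotype, higher in GPx4+/- by 0.53 over both diets. The source of this difference, including any part of the disrupted allele itself, was not tested. Of 16 other peroxide-removing enzymes, all tested, 1 was called with diet, Prdx4, the peroxiredoxin of the endoplasmic reticulum, which fell by 0.27 (adjusted p = 0.0131), and 1 with genotype, the targeted Gpx4. Gpx1, Prdx1 and Prdx3 had log2 differences with diet of -0.10, 0.01 and 0.03. With carnosine 0 genes of any list were called.

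**Figure D5:**
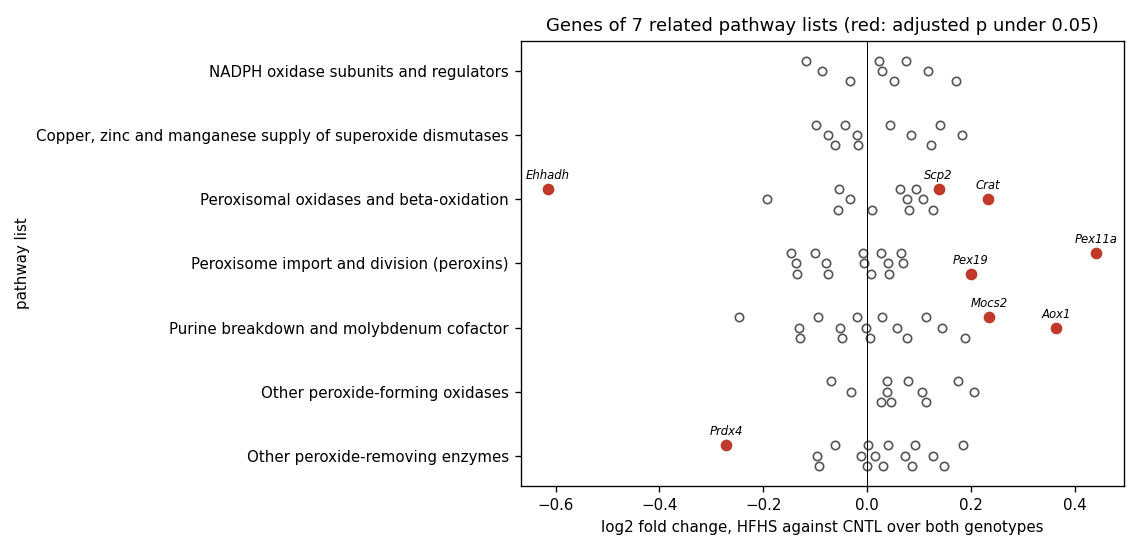
Log2 fold change with HFHS against CNTL over both genotypes (horizontal axis) of the tested genes in 7 lists of related function. Each circle is a gene, and red, with its name, marks an adjusted p under 0.05. The named genes are 3 peroxisomal enzymes, 2 peroxins, 2 genes of the molybdenum enzymes and Prdx4, and the list of NADPH oxidase genes has none.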

How the data were processed

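Left ventricular RNA of 25 mice was prepared as stranded mRNA libraries and sequenced as paired reads. The authors deposited TPM per transcript and library (119215 transcripts), and the submitters' processing notes name kallisto 0.43.1, sleuth 0.30.0 and build GRCm38, with no role given. TPM is a share of a library and keeps no depth. Columns were matched to mice by their headers, which disagree with stated column positions, and groups and replicate numbers came from the labels.

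Transcripts were mapped to GENCODE M21 (116772 matched, 2443 did not), summed per gene and divided by a median-ratio factor from 11771 genes, then log2 was taken after adding a pseudocount of 0.5. A gene entered the test when its mean over all mice was 1 or more. The test was limma 3.58.1 (R 4.3.3, mean-variance trend) with Benjamini-Hochberg adjustment and a threshold of 0.05. Mice without carnosine were fitted together, and each carnosine comparison on its 10 mice. Since TPM are not counts, this took the place of the study's count-based test. Single values were compared by two-sided exact permutation over mice. The fitting code was tested on simulated data. Shared transcript sequence was searched with blastn 2.17.0.

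Named genes were the 8 members, their 14 transcripts with a mean of at least 1, the 2 genes most like each member, and, of 7 pathway lists, up to 6 called genes each by smallest p over both genotypes. A few uncalled list genes (Rac1, Ncf1, Gpx1, Prdx1, Prdx3) were named after their values were seen. Members and lists were chosen with earlier results of these data known. Of 10 marker lists, those for cardiomyocyte, atrial, hepatocyte, fibroblast, smooth muscle and macrophage genes are given in the text. Endothelial, neutrophil, adipocyte and red blood cell sums ranged from 321 to 433, 1.35 to 20.4, 0.0769 to 16.1 and 2275 to 7567 over all libraries. The alternatives changed the pseudocount (0.1 or 1), the minimum (none or 5), the scaling (none or quantile), the unit tested (single transcripts) and the model (replicate block, array weights, or fewer or more groups fitted), or left out a mouse at a time. Leaving out 6 mice that stood apart in markers was chosen after seeing the data.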

Additional observations from a re-analysis of the deposited data

Results flagged for a closer look

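In groups of 5 mice, a mouse was singled out when its gap to the nearest mouse took more of the group's range than Dixon's 95% limit. Of 40 groups searched (8 members in 5 groups) 2 held such a mouse, and chance alone gives about 1 in 20 groups, or 2. Nox4 in WT HFHS mouse 4 was 3.76 with the next mouse at 1.37, a gap of 0.725 of the range, and the same mouse held the highest smooth muscle and fibroblast marker sums. Cat in GPx4+/- HFHS mouse 2 was 183 with the next mouse at 155, a gap of 0.750 of the range. In TPM as deposited this mouse and GPx4+/- HFHS mouse 1 were both at 162. Its library had a scaling factor of 0.885, the lowest among mice without carnosine, and the highest mitochondrial share of all libraries (48.7%), and the part of these in the value was not tested. Without it the GPx4+/- diet difference of Cat fell from 0.28 to 0.22 on the log2 scale and was not called (adjusted p = 0.0834 from limma).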

How the results depend on the processing

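The count of members called stayed at 0 in every alternative for each genotype comparison, diet by genotype and carnosine in WT HFHS, and at 2 for diet over both genotypes except with the 6 marker mice left out (3). With diet in GPx4+/- it fell from 2 to 1 with no filter on low values, quantile normalization, transcripts tested singly, only the groups compared in the fit, and the 6 marker mice left out, and to 0 with TPM as deposited, where the median of all genes shifted by -0.10 on the log2 scale. It was 1 to 2 with each mouse left out. With diet in WT it rose from 1 to 2 with array weights, and with carnosine mice against WT CNTL from 0 to 1 with array weights or all 25 mice in 1 fit. The causes were not tested. Sod3 with diet in WT and over both genotypes and Cat over both genotypes kept direction and call throughout, with adjusted p up to 0.0454, 0.00308 and 0.0172. Of 1832 member values under alternatives, 15 lost a call, 4 gained a call and no called value changed sign. Among values not called in either fit, 67 of 1020 changed sign with a mouse left out and 41 of 650 otherwise, none larger than 0.11. Of 24 calls of list and alike genes, 9 held throughout, and 116 of their 731 values lost the call.

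Genes called in all ranged from 36 to 405 with diet in WT, 124 to 484 in GPx4+/-, 590 to 1262 over both genotypes, 0 to 141 for carnosine mice against WT CNTL, and 3 to 10 for genotype. Mice with the same replicate number did not deviate together (50 pairs, r from -0.34 to 0.23, median near 0, 9 above 0.1), so the numbers do not pair them. With the replicate number as a block, the members called were 1 with diet in WT, 2 in GPx4+/- and 2 over both genotypes, Cat in WT had an adjusted p of 0.0871, and genes called with diet in WT fell from 142 to 68. TPM hold no counts, so the precision of the low Nox4 and Cybb values is unknown.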
